A study of Mus musculus with 24 samples.

Results

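Colorectal tumors labelled KO-1-hetero were compared with colorectal tumors labelled WT-young by RNA sequencing. The members were the 3 KO-1-hetero and the 4 WT-young tumor libraries, selected by their sample titles, which is 7 of the 24 libraries of the series. The KO-1-hetero group carries the genotype label c-MAF_KO, and its titles add a leading number 1 and the word hetero. The WT-young group carries the genotype label WT, and its titles add the word young. All 24 libraries, normal tissue included, carry the treatment label AOM/DSS, so the WT-young tumors are from treated animals and no untreated tissue serves as a control. The labels used here give neither the meaning of the leading number, nor how or in which cells the allele was altered, nor the age in weeks, the sex or the identity of the animals. The 2 KO-1-hetero and 2 WT-young normal libraries, and the 3 KO-8-hetero and 3 KO-8-homo tumors (genotype c-MAF_KO, a leading number 8, hetero or homo in the title), were used for side-by-side values. Nothing states that replicates came from separate animals, so the p-values measure the spread between these libraries, which may in part be technical.

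Azoxymethane is a carcinogen that alkylates DNA, and dextran sulfate sodium is a polymer that injures the colon lining and causes colitis. Given together they produce tumors of the colon in mice, usually with active Wnt signalling. c-MAF, encoded by Maf, is a basic leucine zipper transcription factor of the large Maf family, which binds Maf recognition elements as a dimer. It is known for its roles in lens development, in helper and regulatory T cells and in macrophages, and it is overexpressed in part of the multiple myelomas, tumors of plasma cells.

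Expression is given in FPKM, in which the fragments of a gene are divided by transcript length and by the mapped fragments of its library, which allows levels to be compared between genes. A gene was tested when it had at least 1 FPKM in at least 3 of the 7 libraries, and 13065 of 24346 symbols passed. A gene can therefore enter the test through the 3 KO-1-hetero libraries alone, or through WT-young libraries alone. Differences are in log2(FPKM + 1), KO-1-hetero minus WT-young, fitted with limma over all 13065 genes. "Rose" and "fell" stand for a Benjamini-Hochberg adjusted p below 0.05, and a ratio is one of mean FPKM. The number of genes at 1 FPKM or more ran from 12332 to 13026 per library, and depth relative to the median library from 0.756 to 1.10. Depth was estimated from the most frequent ratio of a library's low values to those of WT-young tumor 1. Across genes, log2 values correlated at 0.967 to 0.977 within KO-1-hetero, at 0.950 to 0.985 within WT-young and at 0.938 to 0.967 between the groups. The first principal component held 44.4% of the variance and separated the groups, and WT-young tumor 4 stood apart on the second at -42.5. One library also stood apart by sex-linked genes. KO-1-hetero tumor 3 had 49.9 FPKM of Xist and 0.0309 FPKM of the Y-linked Ddx3y, whereas the other 6 libraries had at most 0.0621 FPKM of Xist and at least 9.43 FPKM of Ddx3y. The part of sex in the results was not tested, and counts without this library are given below.

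Maf itself (chromosome 8, positions 115703253 to 115706894 in mm10, the build of the files) was not lower in the tumors labelled KO. The tumors labelled KO-1-hetero held 4.43, 4.62 and 7.397 FPKM and the WT-young tumors 2.26, 1.92, 1.903 and 1.63 FPKM. Every library labelled KO-1-hetero exceeded every WT-young library, with a 2.84-fold higher mean. The log2 difference was 1.12 (SE 0.171, limma adjusted p 0.0174), and an exact two-sided permutation test gave p = 0.0571, the smallest that 35 splits of 3 and 4 libraries can give. The limma call was lost without KO-1-hetero tumor 1 (adjusted p 0.0608), WT-young tumor 2 (0.0535) or WT-young tumor 3 (0.0520). Since 1 value per gene covers all exons, transcripts of an altered allele may be among the counted fragments. KO-1-hetero below is therefore the name of a label, and no direction is drawn from it as an effect of lower Maf RNA.

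Among the related factors, Maff, a small Maf protein that lacks a transactivation domain, fell. It measured 6.76, 7.73 and 6.68 FPKM in the libraries labelled KO-1-hetero and 11.7, 12.8, 14.4 and 13.2 FPKM in WT-young, with no overlap (log2 difference -0.798, SE 0.0969, adjusted p 0.00974). The other small Maf genes Mafg and Mafk did not pass, with log2 differences of -0.297 and -0.24 (adjusted p 0.215 and 0.402). The neighbouring protein-coding gene Wwox (chromosome 8, positions 114439635 to 115352712), which encodes an oxidoreductase with WW domains, measured 4.19, 3.696 and 3.26 FPKM against 5.21, 5.41, 5.49 and 5.69 FPKM. Its fall was small (-0.45, adjusted p 0.0375) and was called in 1 of the 7 fits that left out a library. Of 15 genes reported elsewhere as c-MAF targets, 11 were tested, 4 rose and 0 fell, where 3.41% of all tested genes rose and 3.26% fell. Their median log2 difference was 0.84, against -0.03 for all genes. Among the 4 were Itgb7, the integrin chain of gut-homing lymphocytes, Icos, a costimulatory receptor of T cells, and Blk, a kinase of B cells. Icos is also on the T cell list and Blk on the B cell list, so this count is not separate from theirs. Blk was below 1 FPKM in every WT-young tumor and was tested through the KO-1-hetero tumors only. Itgb7 measured 9.91, 6.64 and 11.6 FPKM against 2.58, 2.24, 2.501 and 1.87 FPKM, a 4.08-fold higher mean (adjusted p 0.00724). With each library left out in turn (KO-1-hetero tumors 1 to 3, then WT-young tumors 1 to 4), 0, 4, 2, 1, 2, 1 and 4 of the 11 rose. The list median depended on the filter. Without a filter 3 of 15 rose, with a median of 0.25. With at least 1 FPKM in all 7 libraries 3 of 8 rose, with a median of 0.65.

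In all, 871 of the 13065 genes differed, 445 of them higher and 426 lower in the tumors labelled KO-1-hetero, which is 6.67%. Without adjustment, 3530 genes had p below 0.05, 27%, and in all 871 called genes, 100%, the groups did not overlap. In 11.6% of all tested genes every KO-1-hetero value lay above every WT-young value, and in 15.5% every one lay below. Of the 871 genes, 282 changed by at least 1 on the log2 scale, 172 upward and 110 downward. The split depended on the scaling, since median-of-ratios factors gave 521 higher and 316 lower. The count depended on single libraries: it was 58 without KO-1-hetero tumor 1, 134 without KO-1-hetero tumor 3, 193 without WT-young tumor 2, 202 without WT-young tumor 3, 357 without WT-young tumor 1, 795 without KO-1-hetero tumor 2 and 1094 without WT-young tumor 4. Each count for a gene list is to be set against the shares over all tested genes, 3.41% that rose and 3.26% that fell. Counts for gene lists are given below in a fixed order of left-out libraries, KO-1-hetero tumors 1, 2 and 3 and then WT-young tumors 1, 2, 3 and 4. Of the 871 genes, 51 were called in all 7 of these fits and 212 in at least 4.

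**Figure D1:**
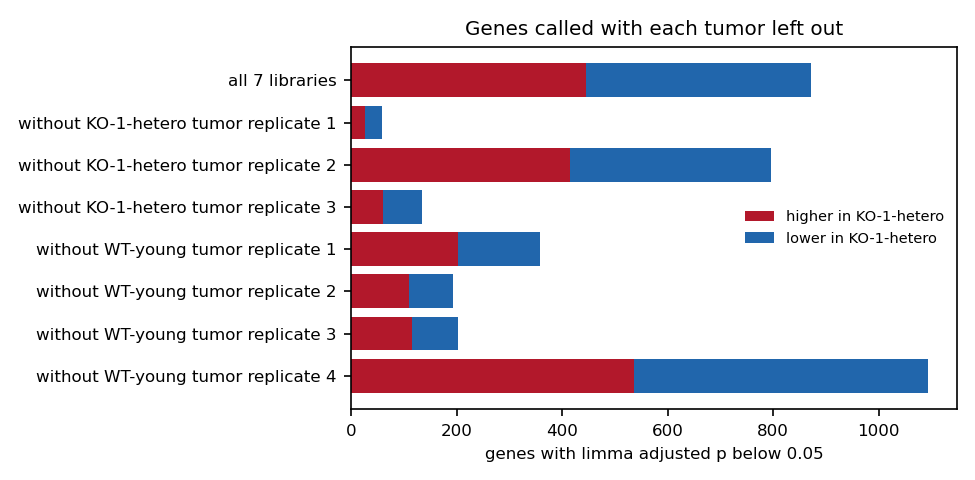
Number of genes with a limma adjusted p below 0.05 (horizontal axis) with all 7 tumor libraries and with each library left out, split into genes higher (red) and lower (blue) in the tumors labelled KO-1-hetero. All 7 libraries gave 871 genes, and the fits with a library left out gave between 58 and 1094.

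Of 21 tested smooth muscle genes, 14 rose and 0 fell, and all 21 had a positive log2 difference, with a median of 1.44. Des, the muscle intermediate filament desmin, measured 92.999, 42.2 and 79.9 FPKM in the tumors labelled KO-1-hetero and 9.14, 10.03, 5.47 and 7.94 FPKM in the WT-young tumors. The lowest KO-1-hetero value was thus above the highest WT-young value, and the mean was 8.803-fold higher (log2 difference 2.94, SE 0.293, adjusted p 0.00643). Cnn1, the actin-binding calponin of contractile cells, was 95.97, 53.7 and 86.95 FPKM against 15.9999, 15.7, 9.24 and 8.797 FPKM (2.58, adjusted p 0.00716). Actg2, the enteric smooth muscle actin, was 219, 113 and 177 FPKM against 58.8, 44.8, 37.8 and 32.1 FPKM (1.93, adjusted p 0.0145). KO-1-hetero tumor 2 was the lowest of its group for all 3 genes. Lmod1, leiomodin, which nucleates actin filaments, rose from 1.28, 1.405, 0.876 and 0.587 FPKM to 7.27, 4.86 and 6.08 FPKM, and Des and Lmod1 were called in every fit that left out a library. Mfap4, a protein of elastic fibres, rose in the same tumors (44.999, 39.1 and 53.4 against 9.06, 7.15, 9.12 and 2.72 FPKM, log2 difference 2.64, adjusted p 0.0129), as did Nov, a matricellular protein (68.7, 43.7 and 47.9 against 4.21, 7.83, 19.9 and 6.71 FPKM, adjusted p 0.023). With each library left out in turn, 2, 15, 3, 13, 7, 6 and 14 smooth muscle genes rose. With at least 1 FPKM in all 7 libraries 9 of 15 rose, and without a filter 12 of 22 rose. Of the 21 genes, 6 rose with all 14 tumors in the fit and 3 with all 24 libraries. With same-numbered replicates fitted as a block 9 rose, and with array weights 15 did.

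**Figure D2:**
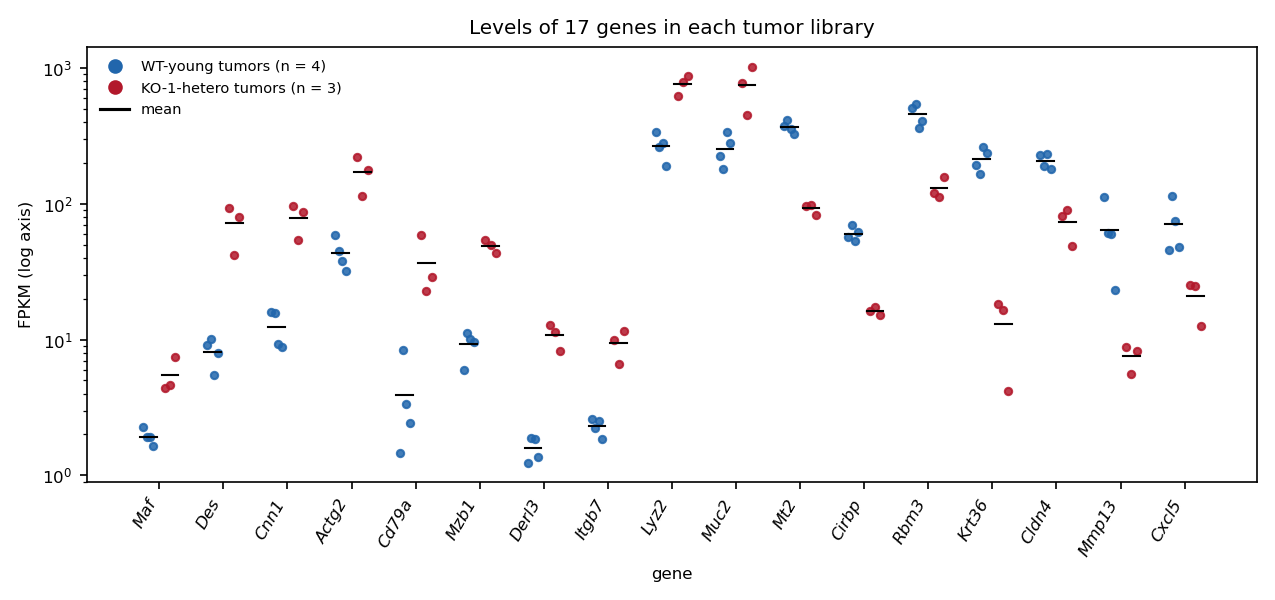
FPKM of 17 genes (log axis) in each WT-young tumor (blue) and each tumor labelled KO-1-hetero (red), with the mean as a line. For every gene shown the 2 groups do not overlap, and Mt2, Cirbp, Rbm3, Krt36, Cldn4, Mmp13 and Cxcl5 are lower in the red group.

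Of 18 fibroblast and matrix genes, 2 rose and 0 fell, namely Lum, a collagen-binding proteoglycan (26.1, 23.8 and 29.6 against 6.18, 8.56, 3.59 and 8.25 FPKM, adjusted p 0.0129), and Fbln1, fibulin 1 of the extracellular matrix (23.9, 21.9 and 23.4 against 7.83, 6.09, 7.78 and 3.63 FPKM, adjusted p 0.0113). The list median was 0.33 with all libraries and -0.02 without WT-young tumor 4, and the summed level of its members overlapped between the groups (1176, 914 and 1038 against 1452, 1062, 974 and 439.7 FPKM). None of 12 endothelial, 6 lymphatic endothelial, 6 enteric neuron or 3 adipocyte genes passed, and 0 of 7 enteric glia genes reached the level for testing. The summed level of the smooth muscle list was 2015, 1486 and 2016 FPKM in the tumors labelled KO-1-hetero and 1043, 931, 735 and 648 FPKM in the WT-young tumors. In normal tissue it was 2577 and 5259 FPKM with the KO-1-hetero label and 11758 and 3910.2 FPKM with the WT-young label, where the wall of the colon contributes muscle. The part of muscle carried into the tissue pieces was not tested. In such bulk libraries a different share of cells of a type and a different amount of RNA per cell cannot be told apart.

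Of 10 tested B cell genes, 6 rose and 0 fell, and in all 10 the groups did not overlap, with a median log2 difference of 1.87. Over all tested genes 3.41% rose, and in 11.6% every KO-1-hetero value lay above every WT-young value. The count depended on the filter, since 3 of 13 rose without a filter. With at least 1 FPKM in all 7 libraries 2 were tested and 2 rose. Blk was below 1 FPKM in every WT-young tumor and was tested through the KO-1-hetero tumors alone. Cd79a and Cd79b encode the signalling chains of the B cell receptor, and Ms4a1 encodes CD20. Cd79a measured 58.7, 22.7 and 28.6 FPKM in the tumors labelled KO-1-hetero and 1.45, 8.34, 3.34 and 2.45 FPKM in WT-young, a 9.42-fold higher mean (log2 difference 3.01, SE 0.484, adjusted p 0.02). Cd79b measured 33.02, 10.4 and 15.2 FPKM against 1.01, 5.99, 1.66 and 2.11 FPKM (2.49, adjusted p 0.0321), and Ms4a1 14.8, 2.62 and 5.19 FPKM against 0.256, 1.33, 0.233 and 0.386 FPKM (2.24, adjusted p 0.0389). KO-1-hetero tumor 1 was the highest library and WT-young tumor 2 the highest of its group for each of these 3 genes. Fcrla, an Fc receptor-like protein made inside B cells, followed the same order, with 8.08, 3.05 and 4.32 FPKM against 0.479, 1.28, 0.443 and 0.429 FPKM (adjusted p 0.02). The MHC class II genes that rose, 3 of 10, were H2-DMb2, H2-Oa and H2-Ob, which encode chains of the molecules that control peptide loading, and H2-Oa and H2-Ob are typical of B cells. H2-Oa was 7.48, 3.04 and 7.26 FPKM against 0.916, 2.097, 0.944 and 0.869 FPKM and H2-Ob 9.78, 2.19 and 4.895 FPKM against 0.331, 1.11, 0.391 and 0.437 FPKM (adjusted p 0.029 and 0.0326). Among the WT-young tumors, only tumor 2 reached 1 FPKM for Ms4a1, Fcrla, H2-Oa and H2-Ob. These genes too passed the filter because of the KO-1-hetero tumors, where they were high. With at least 1 FPKM in all 7 libraries 1 of 8 MHC class II genes rose. Leaving out each library in turn gave 0, 10, 0, 2, 3, 0 and 3 B cell genes that rose. For MHC class II genes the counts were 0, 3, 0, 0, 2, 0 and 3. With same-numbered replicates fitted as a block, 0 of 10 B cell and 0 of 10 MHC class II genes rose. Over all alternatives the list median stayed between 1.44 and 2.88 for B cell genes and between 0.138 and 0.85 for MHC class II genes.

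Of 10 tested plasma cell genes, 8 rose and 0 fell, with a median log2 difference of 1.34 and members from -0.38 to 2.32. Mzb1, a chaperone for antibody secretion, measured 54.2, 49.9 and 43.5 FPKM in the tumors labelled KO-1-hetero against 6.002, 11.1, 10.2 and 9.57 FPKM, a 5.34-fold higher mean (log2 difference 2.32, SE 0.193, adjusted p 0.00401). Derl3, a derlin that moves misfolded proteins out of the endoplasmic reticulum, measured 12.8, 11.4 and 8.29 FPKM against 1.24, 1.89, 1.84 and 1.36 FPKM (2.18, SE 0.165, adjusted p 0.00317). Each KO-1-hetero library was several times above every WT-young library for both genes, and both were called in every fit that left out a library. Irf4, a transcription factor of plasma cell differentiation, rose (6.02, 3.299 and 4.33 against 0.724, 1.33, 1.01 and 1.01 FPKM, adjusted p 0.0121), and so did Pou2af1, a coactivator of octamer-binding factors in B cells (15.8, 10.7 and 10.8 against 1.52, 4.31, 2.64 and 2.22 FPKM, adjusted p 0.0137). Creld2, a disulfide isomerase-like protein of the endoplasmic reticulum stress response, is on no list and rose from 31.98, 29.2, 34.7 and 30.2 FPKM to 59.9, 56.3 and 62.3 FPKM (0.897, adjusted p 0.00643). With each library left out in turn, 2, 5, 4, 7, 4, 5 and 8 plasma cell genes rose.

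The promoter windows of Derl3 and Creld2 are shown because both genes rose in every fit and both windows hold an endoplasmic reticulum stress response element, ERSE, searched on both strands as CCAAT and CCACG with any 9 bases between them. The windows are the 250 bases before a start annotated by RefSeq in GRCm38.p6, which for some genes lies inside the gene. The element is in capitals, here read on the opposite strand. It begins 156 bases before the start in Derl3 (chr10:75893148-75893397, plus strand) and 126 bases before it in Creld2 (chr15:88819396-88819645, plus strand). Of 32851 promoter windows, 0.113% hold it, and of the 9 plasma cell genes with a window, 1 does. A match describes letters in the window and says nothing of occupancy.
Derl3: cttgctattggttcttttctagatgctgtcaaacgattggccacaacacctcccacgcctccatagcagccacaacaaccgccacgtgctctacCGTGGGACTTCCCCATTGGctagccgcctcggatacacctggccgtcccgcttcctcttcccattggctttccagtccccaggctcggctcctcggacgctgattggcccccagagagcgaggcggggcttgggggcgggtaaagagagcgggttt
Creld2: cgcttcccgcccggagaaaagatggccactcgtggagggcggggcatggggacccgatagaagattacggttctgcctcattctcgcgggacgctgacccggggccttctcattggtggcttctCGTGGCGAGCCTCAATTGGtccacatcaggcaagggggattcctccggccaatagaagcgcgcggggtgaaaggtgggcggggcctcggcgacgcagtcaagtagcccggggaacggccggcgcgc

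T cell, macrophage and mast cell genes rose in part. Of 14 T cell genes, 4 rose and 0 fell, with a median log2 difference of 0.93: Cd3g of the T cell receptor complex (11.6, 13.8 and 23.1 against 6.01, 3.18, 6.12 and 7.63 FPKM), the coreceptor Cd4 (5.95, 4.04 and 10.5 against 2.28, 2.504, 2.18 and 1.3999 FPKM), Icos (2.69, 2.64 and 5.64 against 1.22, 1.104, 1.21 and 1.101 FPKM) and Foxp3, the factor of regulatory T cells (1.73, 1.19 and 2.68 against 0.53, 0.685, 0.666 and 0.5305 FPKM). Their adjusted p-values were 0.0431, 0.04, 0.0345 and 0.0461. KO-1-hetero tumor 3 was the highest library for all 4. None of 5 cytotoxic genes passed, and Cd8a overlapped between the groups, at 1.12, 0.646 and 2.19 against 1.19, 0.4297, 2.44 and 2.32 FPKM. Of 12 macrophage genes, 5 rose and 0 fell, led by Lyz2, lysozyme of myeloid cells (620.1, 786 and 863 against 339, 259, 279 and 188 FPKM, adjusted p 0.0146). The others were C1qa, C1qb and C1qc, chains of complement C1q, and Adgre1, the F4/80 antigen, with log2 differences of 0.89, 0.82, 0.88 and 0.96. Of 10 mast cell genes, 4 rose and 0 fell, namely Kit, Mcpt4, Tpsb2 and Tpsab1, a receptor kinase, a chymase and 2 tryptases. Kit, which interstitial cells of Cajal in the muscle layer also express, was 10.5, 6.78 and 12.1 FPKM against 3.203, 3.198, 3.45 and 4.17 FPKM, and Tpsb2 was 12.5, 18.9 and 10.2 FPKM against 4.91, 1.84, 1.89 and 5.76 FPKM. The numbers that rose with each library left out in turn were 0, 6, 1, 0, 0, 0 and 2 for T cells, 0, 2, 0, 1, 1, 1 and 6 for macrophages and 0, 1, 0, 2, 0, 0 and 3 for mast cells. Ltb, lymphotoxin beta, which organizes lymphoid follicles, was the member called of 6 follicle stroma genes (18.8, 9.64 and 18.98 against 4.87, 3.91, 5.54 and 3.499 FPKM, adjusted p 0.0183). Rgs13 was the member called of 4 germinal centre genes (1.35, 1.17 and 2.56 against 0.173, 0.134, 0.221 and 0.459 FPKM, adjusted p 0.0287). It is also on the tuft cell list, where it was again the only call, so it does not tell these cell types apart. Foxp3 and Rgs13 were below 1 FPKM in every WT-young tumor and were tested through the KO-1-hetero tumors alone.

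**Figure D3:**
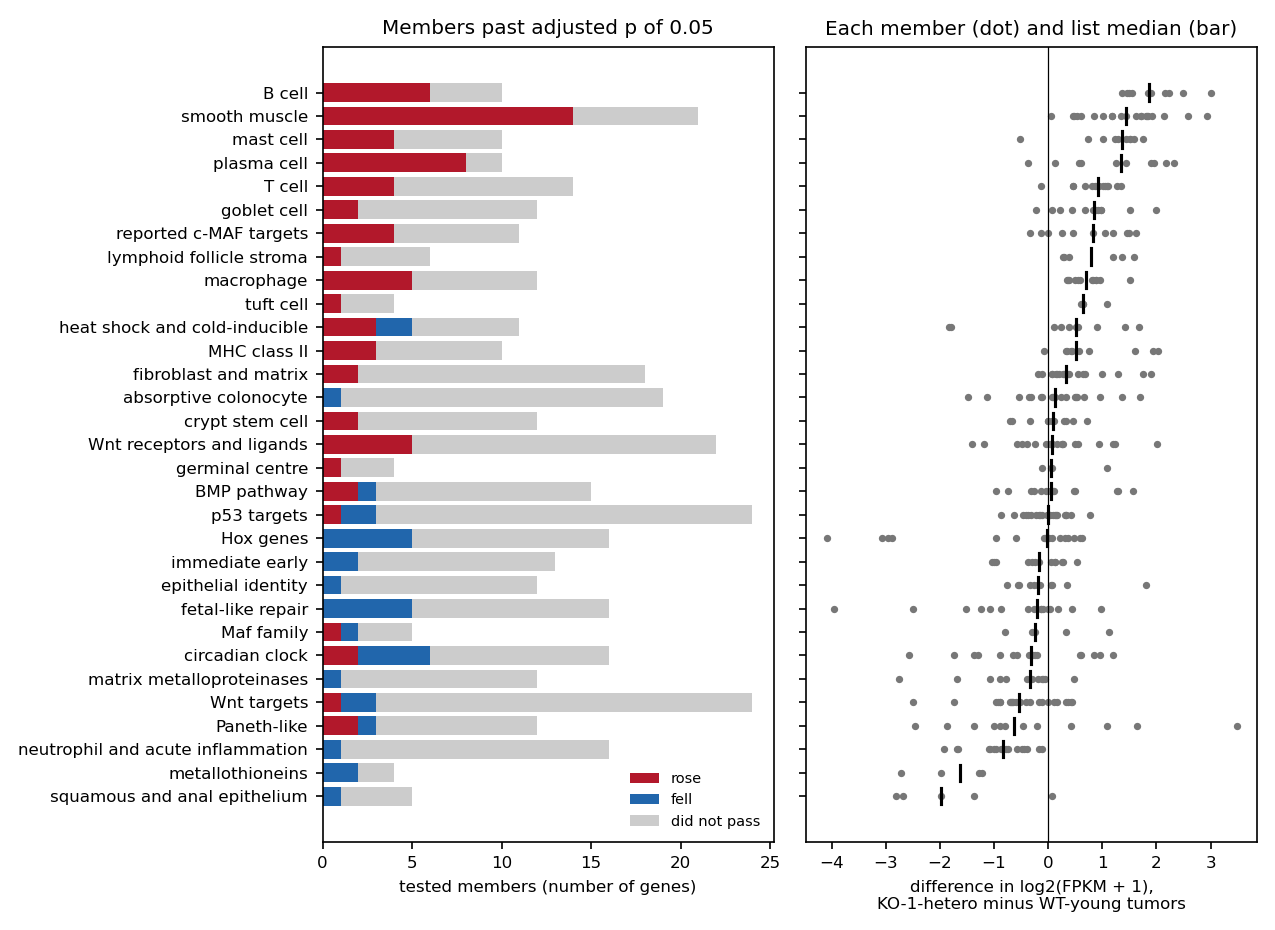
For the 31 gene lists with at least 4 tested members and at least 1 call, the left panel gives the number of members that rose (red), fell (blue) or did not pass (grey) at a limma adjusted p of 0.05. The right panel gives each member's log2 difference as a dot and the list median as a bar, which runs from -1.98 for squamous and anal epithelium to 1.87 for B cells.

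All 16 tested neutrophil and acute inflammation genes had a negative log2 difference, with a median of -0.83, but 1 passed. This was Cxcl5, a chemokine that attracts neutrophils, at 25.3, 24.7 and 12.6 FPKM in the tumors labelled KO-1-hetero against 45.6, 114, 74.7 and 47.6 FPKM (log2 difference -1.67, adjusted p 0.0427), and it was called in 1 of the 7 fits that left out a library. Cxcl2 and Cxcl3, of the same chemokine family, measured 5.03, 1.87 and 1.597 against 12.4, 25.2, 14.4 and 5.25 FPKM and 1.51, 0.683 and 0.843 against 4.56, 17.5, 3.34 and 2.67 FPKM and did not pass (adjusted p 0.0592 and 0.0971). WT-young tumor 2 was the highest library for each of these 3 chemokines. Mmp13, a collagenase induced in inflamed tissue, was the member called of 12 matrix metalloproteinases and their inhibitors, and it fell. It measured 8.88, 5.56 and 8.22 FPKM against 113, 61.1, 60.2 and 23.3 FPKM, an 8.52-fold lower mean (log2 difference -2.76, SE 0.464, adjusted p 0.0218). Without WT-young tumor 4, which stood apart on the second principal component, 8 of the 16 neutrophil and acute inflammation genes fell and 5 of the 12 metalloproteinases and inhibitors fell. Without each other library in turn, 0 of the 16 and 0 or 1 of the 12 fell. The immediate early genes Atf3 and Fosb fell (-1.03 and -1.002, adjusted p 0.0194 and 0.0485), which is 2 of 13, where 3.26% of all tested genes fell. Fosb was below 1 FPKM in every KO-1-hetero tumor and was tested through the WT-young tumors alone. None of 17 interferon response genes passed. Gbp2, an interferon-induced GTPase, was 59.3, 25.3 and 60.3 FPKM against 107, 111, 119 and 284 FPKM (-1.63, adjusted p 0.064), and Ifi44 was 24.3, 10.9 and 6.802 FPKM against 4.26, 4.28, 6.75 and 5.596 FPKM (1.11, adjusted p 0.109).

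Of 16 tested genes of the fetal-like repair state, which the colon epithelium enters after injury, 5 fell and 0 rose, 11 were lower and 5 higher, and the list median was -0.21. Cldn4, a tight junction claudin, was 81.4, 90.2 and 49.1 FPKM against 227, 190.2, 232 and 179 FPKM (-1.52, adjusted p 0.0146). Msln, mesothelin, was 2.36, 3.49 and 0.256 FPKM against 22.2, 16.4, 11.9 and 8.73 FPKM (-2.49, adjusted p 0.0287). Anxa1, a phospholipid-binding annexin, and Krt7, a keratin of simple epithelium, fell by less, with log2 differences of -1.23 and -0.87 (adjusted p 0.0445 and 0.0452). Leaving out each library in turn gave 1, 5, 2, 2, 3, 2 and 4 members that fell.

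Krt36, Krt13, Serpinb11 and Sprr2b fell in the same tumors, and no list of keratins was tested. Krt36, a hair-type keratin, had one of the largest falls of all genes, from 191, 166, 262 and 237 FPKM to 18.3, 16.4 and 4.19 FPKM (16.5-fold lower, log2 difference -4.14, SE 0.443, adjusted p 0.00708). Krt13, a keratin of stratified epithelium, was 9.26, 8.57 and 3.299 FPKM against 47.7, 140.1, 35.1 and 29.6 FPKM (-2.81, adjusted p 0.0319). Serpinb11, a serpin, was 0.351, 2.34 and 0.271 FPKM against 13.9, 14.8, 16.2 and 13.6 FPKM, and Sprr2b, of the cornified envelope, 0.176, 0.363 and 0.207 FPKM against 7.96, 4.61, 5.25 and 4.77 FPKM, with log2 differences of -3.12 and -2.39 (adjusted p 0.00643 and 0.00317). All 4 genes were without overlap between the groups. Of 12 squamous and anal epithelium markers, 5 were tested and 1 fell, Krt13. Their summed level over all 12 was 25.7, 33.9 and 32.4 FPKM in the tumors labelled KO-1-hetero and 92.5, 1106, 92.3 and 84.4 FPKM in the WT-young tumors, so that WT-young tumor 2 held the most. The part of anal or squamous tissue in these falls was not tested. Without WT-young tumor 2 Krt36, Serpinb11 and Sprr2b were still called. Adh6a, an alcohol dehydrogenase, fell to a similar extent, from 5.91, 5.41, 7.45 and 5.02 FPKM to 0.438, 0.441 and 0.471 FPKM (-2.25, adjusted p 0.00122). Sprr2b and Adh6a were below 1 FPKM in every KO-1-hetero tumor and were tested through the WT-young tumors alone. Of 12 general epithelial genes, 1 fell and 0 rose, where 3.26% of all tested genes fell and 3.41% rose. The gene that fell was Krt18, a keratin of simple epithelium (364, 465 and 420.4 against 706, 655, 729 and 740.2 FPKM, -0.77, adjusted p 0.0202). Cdx2, a homeodomain factor of the intestinal epithelium, had the difference furthest from 0 of the 12, with 1.7996, and did not pass (adjusted p 0.112). It was 23.2, 13.4 and 48.2 FPKM against 3.95, 2.95, 6.95 and 18.3 FPKM, and WT-young tumor 4 lay within the range of the KO-1-hetero tumors.

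Genes at the 5' end of the HoxD cluster fell together. Hox genes encode homeodomain factors that mark position along the body axis, and the last genes of each cluster mark the hindgut. Of 16 tested Hox genes, 5 fell and 0 rose, and the 5 were neighbours on chromosome 2, from Hoxd13 (starting at 74668225) to Hoxd9 (ending at 74700208). Hoxd13 measured 7.22, 0.811 and 1.39 FPKM in the tumors labelled KO-1-hetero against 53.8, 50.9, 52.4 and 64.6 FPKM in WT-young, a 17.7-fold lower mean (log2 difference -4.095, SE 0.468, adjusted p 0.00808). Hoxd11 was 0.526, 0.32 and 0.0519 FPKM against 7.99, 6.71, 12.3 and 13.8 FPKM, and Hoxd10 was 0.931, 0.385 and 0.115 FPKM against 8.13, 6.74, 12.2 and 12.6 FPKM (-3.07 and -2.88, adjusted p 0.00401 and 0.00537). These 3 genes were low in each KO-1-hetero library, high in each WT-young library and called in every fit that left out a library. Hoxd12 was 0.109, 0.0547 and 0 FPKM against 13.3, 0.838, 13.8 and 10.6 FPKM, so WT-young tumor 2 lay near the KO-1-hetero libraries, and it passed narrowly (-2.96, adjusted p 0.0498). Hoxd9 was lower in level and in difference (0.351, 0.385 and 0.787 against 2.17, 1.42, 2.26 and 1.97 FPKM, -0.97, adjusted p 0.0213). Of the last genes of other clusters, Hoxa13 was 12.9, 12.5 and 12.7 FPKM against 11.9, 13.3, 12.5 and 15.8 FPKM and Hoxb13 149, 160.4 and 38.2 FPKM against 109, 138, 157 and 199 FPKM, and neither passed (adjusted p 0.738 and 0.477). With each library left out in turn, 3, 4, 4, 3, 5, 3 and 4 Hox genes fell. Hoxd9, Hoxd10, Hoxd11 and Hoxd12 were below 1 FPKM in every KO-1-hetero tumor and were tested through the WT-young tumors alone. The count therefore depended on the filter. With at least 1 FPKM in all 7 libraries 9 Hox genes were tested and 0 fell, and without a filter 4 of 33 fell. In normal tissue Hoxd13 was 4.99 and 4.73 FPKM with the KO-1-hetero label and 0.902 and 62.1 FPKM with the WT-young label. One WT-young normal library was thus as high as the WT-young tumors and the other below both KO-1-hetero libraries. In the KO-8-labelled tumors it was 55.1, 27.04 and 0.226 FPKM for KO-8-hetero and 16.6, 0.346 and 45.6 FPKM for KO-8-homo, so both low and high values occurred in each. The labels used here do not give the position of each piece along the colon.

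**Figure D4:**
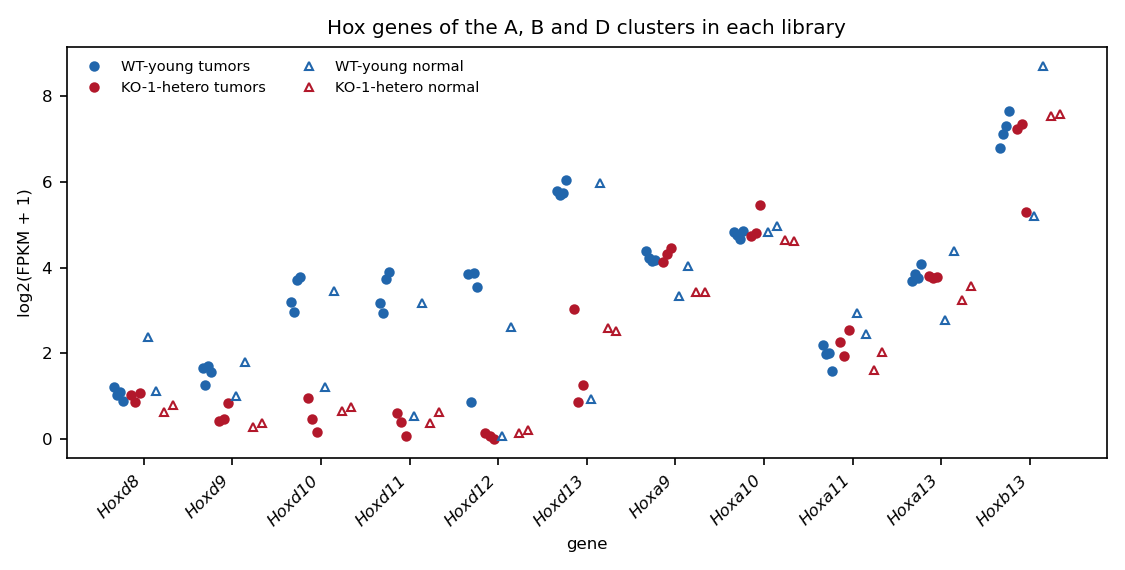
log2(FPKM + 1) of 11 Hox genes in tumors (filled circles) and normal tissue (open triangles) of WT-young (blue) and of libraries labelled KO-1-hetero (red). Hoxd10, Hoxd11 and Hoxd13 separate the tumor groups, the 2 WT-young normal libraries lie far apart for these genes, and Hoxa9, Hoxa10, Hoxa11, Hoxa13 and Hoxb13 overlap between the tumor groups.

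Circadian clock genes differed in tumors and in normal tissue alike. The clock is a feedback loop in which CLOCK and BMAL1, the product of Arntl, bind E-boxes and induce their own repressors, the Per, Cry and Nr1d genes, so that levels of these genes depend on the time of day. Of 16 tested clock genes, 2 rose and 4 fell. Cry1, a repressor of the loop, measured 8.91, 8.398 and 9.18 FPKM in the tumors labelled KO-1-hetero against 4.695, 4.72, 4.19 and 4.35 FPKM in WT-young (1.97-fold higher, log2 difference 0.84, SE 0.0829, adjusted p 0.00643). Nr1d1, the repressor REV-ERBalpha, measured 1.898, 1.55 and 1.44 FPKM against 8.02, 10.6, 17.9 and 28.03 FPKM (9.92-fold lower, -2.56, SE 0.371, adjusted p 0.0154). Its KO-1-hetero values were nearly alike, whereas its WT-young values were spread widely, with WT-young tumor 4 the highest. Nr1d2, REV-ERBbeta, was 7.23, 8.47 and 5.88 FPKM against 20.2, 23.8, 16.3 and 20.5 FPKM (-1.37, adjusted p 0.00782). Dbp, an output factor of the clock, was 1.93, 1.58 and 1.15 FPKM against 9.67, 11.3, 5.28 and 5.31 FPKM (-1.74, adjusted p 0.0179), and Ciart, a repressor of CLOCK and BMAL1, was 0.781, 1.53 and 0.945 FPKM against 3.47, 7.004, 3.25 and 3.38 FPKM (-1.302, adjusted p 0.03). Arntl was 9.85, 10.9 and 14.02 FPKM against 3.56, 3.32, 6.76 and 10.02 FPKM and did not pass (0.96, adjusted p 0.118). Cry1 was called in every fit that left out a library. With each library left out in turn, 0, 4, 1, 4, 4, 2 and 4 clock genes fell and 1, 1, 1, 1, 2, 1 and 3 rose.

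In normal tissue, where 2 libraries stood against 2, 6 of 13065 genes passed, 0.0459%, of which 2 were higher (0.0153%) and 4 lower (0.0306%), with 1901 at an unadjusted p below 0.05. Of the 6, 5 were clock genes and the other was Fam111a, a protease linked to DNA replication, and all 6 had also passed in tumors with the same sign. The order of groups was the same as in tumors: Cry1 was 10.6 and 11.6 FPKM with the KO-1-hetero label against 3.16 and 3.22 FPKM with the WT-young label (log2 difference 1.53, adjusted p 0.00172). Nr1d1 was 1.35 and 2.001 FPKM against 38.99 and 74.97 FPKM (-4.38, adjusted p 0.0136), and Dbp was 1.61 and 2.04 FPKM against 33.2 and 54.8 FPKM (-3.96, adjusted p 0.00332). The WT-young normal libraries were above the WT-young tumors for both Nr1d1 and Dbp. Nr1d2 and Ciart gave log2 differences of -2.22 and -3.25 (adjusted p 0.00332 and 0.0136), and Fam111a gave 1.09 (adjusted p 0.0409). Tef, an output factor like Dbp, did not pass in tumors or in normal tissue (-0.89 and -1.95, adjusted p 0.0679 and 0.1). The labels used here do not give the time of day at which tissue was collected.

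**Figure D5:**
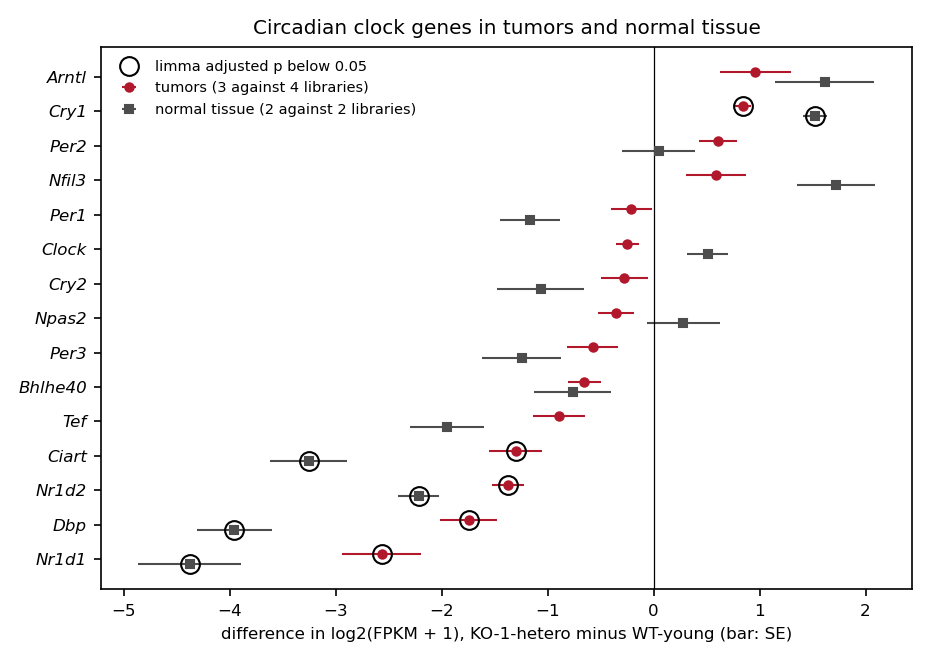
Difference in log2(FPKM + 1) between libraries labelled KO-1-hetero and WT-young libraries for 15 of the 16 tested clock genes, in tumors (red circles) and normal tissue (grey squares), with SE bars and a black ring where the limma adjusted p was below 0.05. Nr1d1, Dbp, Nr1d2 and Ciart are ringed on the negative side in both tissues and Cry1 on the positive side in both.

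The promoter windows of Ciart and Cry1 are shown because these genes moved in opposite directions in both tissues while both hold the E-box CACGTG, in capitals, which reads the same on both strands. Ciart (chr3:95882229-95882478, minus strand) holds 3 matches that begin 116, 58 and 44 bases before the start, and Cry1 (chr10:85185055-85185304, minus strand) holds 1 that begins 60 bases before it. Of all 32851 windows 6.02% hold a CACGTG, as do 5 of the 15 clock genes with a window. The letters are not in the windows of Nr1d1, Nr1d2 and Dbp. The windows of Ciart and Dbp (chr7:45704997-45705246, plus strand) reach into the annotated gene. It begins at 95882257 for Ciart, on the minus strand, and at 45705100 for Dbp.
Ciart: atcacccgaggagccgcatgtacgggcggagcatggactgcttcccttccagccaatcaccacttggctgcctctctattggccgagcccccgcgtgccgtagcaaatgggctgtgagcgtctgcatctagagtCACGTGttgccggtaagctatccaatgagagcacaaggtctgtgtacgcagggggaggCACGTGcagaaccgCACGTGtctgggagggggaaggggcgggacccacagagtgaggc
Cry1: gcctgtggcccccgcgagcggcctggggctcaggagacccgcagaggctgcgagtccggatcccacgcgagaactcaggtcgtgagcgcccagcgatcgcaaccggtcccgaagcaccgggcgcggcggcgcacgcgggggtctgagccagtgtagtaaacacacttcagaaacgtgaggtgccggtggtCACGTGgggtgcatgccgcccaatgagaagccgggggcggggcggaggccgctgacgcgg

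Temperature- and stress-responsive genes moved in both directions. Cirbp and Rbm3 encode RNA-binding proteins that are induced by mild cold, and both fell. Cirbp measured 16.3, 17.2 and 15.1 FPKM in the tumors labelled KO-1-hetero against 56.6, 69.8, 53.2 and 61.6 FPKM, a 3.72-fold lower mean (log2 difference -1.83, SE 0.112, adjusted p 0.00122). Rbm3 measured 119, 113 and 158 FPKM against 509, 537, 358 and 408 FPKM (-1.79, SE 0.187, adjusted p 0.00643). The heat shock genes Hsph1, Hspa1a and Hspa1b, chaperones of the HSP110 and HSP70 families, rose, which makes 3 of 11 members up and 2 down. Hsph1 was 29.2, 40.9 and 48.8 FPKM against 11.999, 10.2, 15.2 and 9.18 FPKM (1.68, adjusted p 0.0113), and Hspa1b was 6.06, 10.8 and 13.9 FPKM against 3.46, 4.11, 2.83 and 1.92 FPKM (1.43, adjusted p 0.0321). Cirbp, Rbm3 and Hsph1 were called in every fit that left out a library, and the number of members that rose was 1, 2, 1, 2, 2, 1 and 3 in these fits. Hspa1a was 2.01, 2.24 and 2.33 FPKM against 0.8401, 0.966, 0.521 and 0.543 FPKM, so it was tested through the KO-1-hetero tumors alone. Since Hspa1a and Hspa1b are near-identical copies, the split of fragments between them is uncertain. The constitutive chaperones did not pass, with log2 differences of 0.23 for Hspa8 and 0.55 for Hsp90aa1 (adjusted p 0.413 and 0.0616). In normal tissue Cirbp was 13.9 and 10.9 FPKM with the KO-1-hetero label against 24.3 and 57.6 FPKM, again without overlap but not past the threshold (-1.53, adjusted p 0.134).

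The metallothioneins Mt1 and Mt2, small cysteine-rich proteins that bind zinc and copper, fell. Mt2 measured 96.04, 98.5 and 82.1 FPKM in the tumors labelled KO-1-hetero against 374, 415, 356 and 324 FPKM in WT-young, a 3.98-fold lower mean (log2 difference -1.98, SE 0.122, adjusted p 0.00122). Mt1 measured 91.1, 99.1 and 127 FPKM against 222, 268, 237 and 253 FPKM (-1.22, SE 0.138, adjusted p 0.0079). Both genes were tightly grouped, without overlap, and called in every fit that left out a library. Mt4, the form of stratified epithelium, was 91.7, 339 and 11.96 FPKM against 444, 521, 467 and 526 FPKM and varied too widely to pass (-2.72, adjusted p 0.118). Of 4 tested members, 2 fell, with a median of -1.63, and 4 fell without KO-1-hetero tumor 2. In normal tissue Mt2 was 75.4 and 55.4 FPKM against 136 and 182 FPKM and Mt1 156 and 137 FPKM against 292 and 327 FPKM, lower in both KO-1-hetero libraries but not past the threshold (adjusted p 0.0808 and 0.0849).

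Mt1 and Mt2 lie side by side on chromosome 8, and their promoter windows are shown with the metal response element, MRE, the binding motif of the metal-sensing factor MTF1, in capitals. It was searched on both strands as TGCACNC and TGCGCNC. Mt2 (chr8:94172368-94172617, plus strand) holds 3 matches that begin 223, 128 and 50 bases before the start. Mt1 (chr8:94178839-94179088, plus strand) holds 1 that begins 23 bases before the start used for its window. That start lies inside the annotated gene, which begins at 94178883, so the match and most of the window lie within the gene. Of all 32851 windows 21.4% hold such a match, since the motif is short, as do 3 of the 4 metallothioneins.
Mt1: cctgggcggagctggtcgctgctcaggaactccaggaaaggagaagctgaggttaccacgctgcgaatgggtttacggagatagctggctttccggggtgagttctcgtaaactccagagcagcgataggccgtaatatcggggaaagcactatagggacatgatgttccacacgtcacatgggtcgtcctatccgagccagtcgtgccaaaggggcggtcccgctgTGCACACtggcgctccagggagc
Mt2: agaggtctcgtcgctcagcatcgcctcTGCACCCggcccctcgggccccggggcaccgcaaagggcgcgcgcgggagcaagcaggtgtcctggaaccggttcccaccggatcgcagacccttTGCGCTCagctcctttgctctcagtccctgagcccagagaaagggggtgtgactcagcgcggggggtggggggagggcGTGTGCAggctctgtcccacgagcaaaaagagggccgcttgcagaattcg

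Called genes of the Wnt pathway went in both directions. Of 22 tested receptors, ligands and secreted modulators, 5 rose and 0 fell, and the median was 0.07. Wnt2b, a ligand made by stromal cells, was 3.76, 3.87 and 3.96 FPKM in the tumors labelled KO-1-hetero against 1.51, 1.19, 1.07 and 0.624 FPKM (log2 difference 1.23, SE 0.155, adjusted p 0.0113). Rspo3, an R-spondin that strengthens Wnt signals at the crypt base, was 3.83, 2.25 and 3.39 FPKM against 1.12, 1.17, 0.582 and 0.396 FPKM (1.1997, adjusted p 0.0255). Sfrp1, a secreted Wnt antagonist, was 44.8, 26.9 and 32.96 FPKM against 12.7, 9.798, 8.497 and 3.16 FPKM (2.01, adjusted p 0.0314). These 3 genes were higher in each KO-1-hetero library than in any WT-young library. The Frizzled receptors Fzd2 and Fzd1 rose by 0.94 and 0.54 (adjusted p 0.0287 and 0.0348), and Fzd1 was 11.2, 11.3 and 11.4 FPKM against 7.54, 6.38, 8.98 and 7.17 FPKM. Of 24 tested target genes of the pathway, 2 fell and 1 rose, and the median was -0.53. Over all tested genes 3.26% fell and 3.41% rose, so the 1 target that rose is near the general share. Apcdd1, a membrane-bound Wnt inhibitor, was 5.93, 19.7 and 5.003 FPKM against 46.5, 62.7, 56.6 and 46.6 FPKM (-2.49, adjusted p 0.0201), and Dkk2, a secreted antagonist, was 3.74, 4.56 and 3.85 FPKM against 21.01, 20.8, 16.3 and 8.45 FPKM (-1.73, adjusted p 0.0211). Myc, the growth-promoting factor, rose narrowly, from 19.3, 16.9, 21.2 and 17.9 FPKM to 26.3, 25.5 and 24.2 FPKM (0.41, adjusted p 0.0486), and in no fit that left out a library. Axin2, the common readout of the pathway, was 27.7, 36.4 and 15.4 FPKM against 46.8, 39.997, 44.4 and 31.9 FPKM and did not pass (-0.67, adjusted p 0.17). Leaving out each library in turn gave 0, 3, 1, 3, 1, 3 and 5 receptors and ligands that rose and 0, 4, 0, 2, 0, 0 and 3 targets that fell. A difference between these lists was not tested.

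Of 15 tested members of the pathway of bone morphogenetic proteins, 2 rose and 1 fell, where 3.41% of all tested genes rose and 3.26% fell. Chrdl1, a secreted antagonist that muscle and stromal cells around the crypt can make, rose from 0.301, 0.825, 0.178 and 0.296 FPKM to 2.41, 2.07 and 2.58 FPKM (log2 difference 1.28, adjusted p 0.0141). It was separate between the groups and called in 5 of the 7 fits that left out a library. Its WT-young values were below 1 FPKM, so it was tested through the KO-1-hetero tumors alone. The target gene Id1, an inhibitor of basic helix-loop-helix factors, fell, at 128, 184 and 147 FPKM against 281, 260.1, 219.6 and 262 FPKM (-0.75, adjusted p 0.0331). Of 12 crypt stem cell genes, 2 rose and 0 fell, namely Lrig1, a negative regulator of ErbB receptors (23.8, 21.7 and 23.7 against 12.5, 12.003, 15.6 and 14.6 FPKM, adjusted p 0.0173), and Rgmb, a coreceptor for bone morphogenetic proteins (12.1, 11.4 and 10.7 against 7.36, 7.41, 8.56 and 8.86 FPKM, adjusted p 0.038). Lgr5, the receptor that marks crypt base stem cells, was 13.1, 14.8 and 8.71 FPKM against 16.2, 9.36, 11.8 and 11.5 FPKM, with overlapping groups (adjusted p 0.993).

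Secretory genes of the epithelium moved in both directions. Of 12 goblet cell genes, 2 rose and 0 fell, with a median log2 difference of 0.86. Muc2, the main gel-forming mucin of the colon, was 768, 447 and 1017 FPKM in the tumors labelled KO-1-hetero against 224, 179.7, 336 and 278 FPKM (1.504, adjusted p 0.0361), and Galnt12, which starts O-linked sugar chains, was 35.1, 33.6 and 41.9 FPKM against 20.5, 19.8, 25.2 and 24.9 FPKM (0.68, adjusted p 0.0281). Agr2, a disulfide isomerase needed for mucin folding, was 1479, 1377 and 2003 FPKM against 638, 623, 942 and 1131 FPKM and did not pass in this fit (0.99, adjusted p 0.0628), although it did under median-of-ratios scaling (adjusted p 0.0476) and quantile normalization (adjusted p 0.0184). With each library left out in turn, 0, 2, 0, 0, 0, 0 and 5 goblet cell genes rose, and 6 did with array weights and 6 with a replicate block. The block did not raise every list, since with it 0 B cell, 0 MHC class II and 9 smooth muscle genes rose. Of 12 antimicrobial genes of Paneth-like cells, 2 rose and 1 fell, where 3.41% of all tested genes rose and 3.26% fell. Of the 12, 8 were lower and 4 higher, and the median was -0.62. Mptx1, a pentraxin, rose, with 1566, 362 and 3865 FPKM against 144, 81.2, 68.8 and 221 FPKM (3.48, SE 0.775, adjusted p 0.0436). Its KO-1-hetero values were spread widely, with tumor 2 the lowest and tumor 3 the highest. Reg4, a secreted lectin, rose (997, 1722 and 1100.05 against 377, 225, 502 and 577 FPKM, adjusted p 0.0372), and Pla2g2a, a secreted phospholipase that attacks bacterial membranes, fell (208, 246 and 134 against 403, 376, 429 and 333 FPKM, adjusted p 0.0359). Mptx1 and Pla2g2a were each called in 2 and Reg4 in 1 of the 7 fits that left out a library. In normal tissue Mptx1 was 26215 and 31604 FPKM with the KO-1-hetero label and 4637 and 2196 FPKM with the WT-young label (adjusted p 0.209), and the KO-1-hetero normal libraries were above every tumor of both groups.

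None of 20 proliferation genes passed, 17 were lower and 3 higher, and the median log2 difference was -0.19. With array weights 5 fell, and 1 fell without KO-1-hetero tumor 3. Mki67, the marker of cycling cells, was 22.1, 16.4 and 28.8 FPKM against 33.2, 29.3, 30.4 and 27.2 FPKM (adjusted p 0.166). Of 24 p53 targets, 1 rose and 2 fell, where 3.41% of all tested genes rose and 3.26% fell. Sesn1, a sestrin that restrains mTORC1, rose (7.22, 7.38 and 8.73 against 4.06, 4.99, 3.63 and 4.02 FPKM, adjusted p 0.0176). Cdkn1a, the cell cycle inhibitor p21, was 77.1, 92.9 and 74.04 FPKM against 112, 112, 133 and 147 FPKM, and Pmaip1, the proapoptotic NOXA, was 10.3, 13.5 and 9.92 FPKM against 16.9, 19.4, 23.2 and 26.4 FPKM (-0.62 and -0.87, adjusted p 0.0422 and 0.0317). Of 19 absorptive colonocyte genes, Scnn1g, a subunit of the epithelial sodium channel, fell (0.292, 0.5901 and 0.227 against 1.64, 3.98, 2.86 and 3.104 FPKM, adjusted p 0.0168), and 0 rose. Scnn1g was below 1 FPKM in every KO-1-hetero tumor, so it was tested through the WT-young tumors alone. None of 19 respiratory chain genes and none of 8 enteroendocrine genes passed. Without KO-1-hetero tumor 1 and without KO-1-hetero tumor 3, 0 genes passed in the lists of p53 targets, colonocytes, crypt stem cells, bone morphogenetic proteins, immediate early genes, general epithelium and Paneth-like cells. The small nucleolar RNAs Snora44 and Snora28 had the largest fitted differences of all, but each was listed at 0 in every library of a group. Snora44 was 23.5, 70.4 and 22.6 FPKM in the tumors labelled KO-1-hetero and listed at 0 in all 4 WT-young tumors, and Snora28 was listed at 0 in all 3 KO-1-hetero tumors and at 26.7, 12.4, 25.2 and 19.6 FPKM in WT-young. Both are short noncoding RNAs that were also listed at 0 in some KO-8-labelled tumors, so no fold is given.

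The 871 genes were also read in normal tissue. Of these, 542 had the same sign there, 62.2%, and 6 passed, 0.689%. The share with the same sign over all tested genes was not computed, so no agreement between tissues is read from the 62.2%. No gene passed the limma test of the difference between the tumor and the normal contrast, 0%, while 2315 genes had an unadjusted p below 0.05, and quantile normalization gave 3. The count was 658 without WT-young normal 1 and 232 without WT-young normal 2. These normal libraries differed widely, as the smooth muscle sums show, so a difference between tissues was not established for any gene. The smooth muscle list had a median log2 difference of 1.44 in tumors and of -1.001 in normal tissue, where 0 of 21 members were higher with the KO-1-hetero label. The B cell list had a median of 1.87 in tumors and of 1.22 in normal tissue, where all 10 members were higher and 0 passed. Cd79a in normal tissue was 39.2 and 18.2 FPKM with the KO-1-hetero label and 14.96 and 2.92 FPKM with the WT-young label (adjusted p 0.322).

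The tumors labelled KO-1-hetero were set beside the other tumors with the c-MAF_KO genotype label. These comparisons use the same 3 KO-1-hetero libraries as the comparison with WT-young, so only the values are given side by side. Against KO-8-hetero 1 of 13065 genes passed, 0.00765%, and against KO-8-homo again 1, 0.00765%, with 1689 and 1536 genes at an unadjusted p below 0.05. Nr1d1 in KO-8-hetero tumors was 10.6, 15.9 and 13.9 FPKM, and in KO-8-homo tumors 4.54, 13.5 and 13.1 FPKM, above each KO-1-hetero tumor (adjusted p 0.146 and 0.139). Mt2 was 287, 371 and 111 FPKM and 337, 282 and 222 FPKM, and Cirbp 65.03, 45.98 and 23.1 FPKM and 48.9, 42.3 and 37.8 FPKM, again above each KO-1-hetero tumor and not past the threshold. Des in KO-8-hetero tumors was 3.74, 106 and 45.8 FPKM, and in KO-8-homo tumors 28.1, 26.8 and 80.9 FPKM, which overlapped with KO-1-hetero. Maf in KO-8-hetero tumors was 5.21, 4.46 and 2.62 FPKM, and in KO-8-homo tumors 2.9996, 4.73 and 4.05 FPKM, also overlapping (adjusted p 0.543 and 0.523). Both counts were 0 without KO-1-hetero tumor 1 and without KO-1-hetero tumor 3, and the count against KO-8-hetero was 183 without KO-8-hetero tumor 3, while that against KO-8-homo was 78 without KO-1-hetero tumor 2.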

How the data were processed

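RNA from mouse colorectal tissue was extracted with a miRNeasy kit and made into stranded TruSeq mRNA libraries, per the labels' protocols. The authors deposited one table of FPKM per library, per the file headers. The submitters' processing notes name TopHat2 2.1.1, Bowtie2 2.2.8, SAMtools 0.1.18, Cuffdiff 2.2.1 and the build mm10, without their roles, and the gene annotation is not given in the sources used here. Because FPKM carry no fragment totals, depth is known only in relative terms and count models were left aside.

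Groups were taken from the titles. Values were analysed as log2(FPKM + 1) with limma 3.58.1 in R 4.3.3 (intensity trend, two-sided, Benjamini-Hochberg adjustment, threshold 0.05), which understates the change of low genes. The 7 tumor libraries entered the fit for the tumor comparison, the 11 libraries of both labels the fits for normal tissue and the interaction, and the 14 tumors the comparisons with KO-8 groups. Fits were tested on simulated data. Exact permutation tests, depth estimates and promoter searches used Python 3.11.15 and scipy 1.17.1, with RefSeq promoters of GRCm38.p6, whose table matched 23143 of 24346 symbols.

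The members and the 43 gene lists were chosen with earlier results of these data known. Named genes are the 10 largest rises and falls past the threshold whose groups do not overlap, up to 4 members of each list by p, the 4 genes of smallest p in each other comparison, and the Maf genes, Wwox and Fzd1 by name. Ciart, Fam111a, Tef, Hspa1b, Creld2, C1qa, Krt7, Cd8a, Hoxa13, Hoxb13, Arntl, Hspa8, Hsp90aa1, Lgr5, Mki67 and Cdx2 were chosen after their values were seen. The alternatives were other pseudocounts, filters, scalings, sample sets and weights, a replicate block, and leaving out each library. No sequence or value of other samples was used. The results of a few named genes are not reported here, although counts over lists include them.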

Additional observations from a re-analysis of the deposited data

Results flagged for a closer look

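In 6 of 109 genes checked, 5.50%, a WT-young tumor lay far from the other 3 by its gap relative to the range of the group, and chance gives about 5%. In WT-young tumor 2 Hoxd12 was 0.838 FPKM, against 10.6 to 13.8 FPKM in the others, and Ciart was 7.004 FPKM, against 3.25 to 3.47 FPKM. The same library was high in 3 genes of B cells: Fcrla at 1.28 FPKM (others 0.429 to 0.479), H2-Oa at 2.097 FPKM (0.869 to 0.944) and H2-Ob at 1.11 FPKM (0.331 to 0.437). In WT-young tumor 4 Gbp2 was 284 FPKM, against 107 to 119 FPKM in the others.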

How the results depend on the processing

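Over 17 alternatives, 1825 values of 109 genes were recomputed: 1376 kept their direction and their side of the threshold, 424 kept the direction but not the call, 25 passed that had not, and 0 changed sign. The tumor count of 871 became 826 with a pseudocount of 0.1, 885 without a filter, 590 with at least 1 FPKM in all 7 libraries, 837 and 912 with median-of-ratios and quantile scaling, 624 with all 14 tumors, 398 with all 24 libraries, 1847 with array weights, 835 without the trend and 282 with a log2 change of at least 1. Leaving out each library gave 58 to 1094 genes, and for Maf a log2 difference of 0.92 to 1.23. The normal count of 6 became 14 with all 24 libraries and 1 to 1592 with a library left out, 1592 without WT-young normal 1 and 20 without WT-young normal 2. The interaction count of 0 became 3 under quantile normalization, 3 with all 24 libraries and 0 to 658 with a library left out. Against KO-8-hetero the count of 1 became 2 under quantile normalization, 3 with the 6 libraries compared, 4 without a filter and 0 to 183 with a library left out. Against KO-8-homo it became 11, 4, 5 and 0 to 78 in the same order. The cause of these shifts was not tested.

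Same-numbered tumors were not shown to be paired, since their deviations correlated at 0.0735, 0.0346 and -0.0721 across genes with WT-young and 0 of 3 KO-1-hetero tumors matched its own number best. The values were 0.0563, -0.0346 and 0.538 with KO-8-hetero and 0.106, -0.0406 and -0.0314 with KO-8-homo, so no tumor comparison had every pair above 0.1. For the normal libraries it was -0.0489, a single value, since with 2 libraries per group both pairs must give the same. With a replicate block the tumor count was 610, of which 375 were among the 871, the normal count 3, the interaction count 0 (2132 at an unadjusted p below 0.05), that against KO-8-hetero 0 (1994) and that against KO-8-homo 0 (1966). The unknown fragment totals limit genes near 1 FPKM, and 3 against 4 libraries cannot give an exact p below 0.0571.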

Other observations

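Some genes on no list differed with little spread in the tumors. Peg13, a noncoding RNA expressed from the paternal allele, was 7.78, 7.06 and 7.04 FPKM in the tumors labelled KO-1-hetero and 3.94, 4.11, 4.17 and 4.36 FPKM in WT-young (log2 difference 0.69, limma adjusted p 0.00928). In normal tissue it ran the other way, with 3.91 and 5.23 FPKM against 9.66 and 8.30 FPKM (-0.85, limma adjusted p 0.0861). B4galt1, a galactosyltransferase of glycoprotein sugar chains, was 29.5, 28.6 and 29.3 FPKM against 48.1, 51.6, 53.6 and 57.2 FPKM (-0.83, limma adjusted p 0.00643), and it was called in every fit that left out a library.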
